A study of Mus musculus with 21 samples.

Results

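Tumour cells that had been passaged late on brain tissue were compared with cells passaged as long on bone marrow or lung tissue. The 8 arrays of this comparison, of 21 in the series, were chosen by their tissue and passage labels. They comprise 4 arrays of late brain-adapted cells (2 each of P3 and P4) and 4 arrays of late cells adapted on the other tissues (1 each of marrow P3, marrow P4, lung P3 and lung P4). A passage was 21 days on tissue, so P3 cells had spent 63 and P4 cells 84 days there. The parental cells (P0, 2 arrays) gave the starting level.

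All groups were N202 mouse mammary tumour cells, a line from transgenic FVB mice with a rat HER-2/neu proto-oncogene driven by the MMTV promoter. The cells also expressed histone H2B-GFP, were held under G418 and were sorted on GFP. Spheroids were grafted on minced, revascularized tissue of C57BL/6 donors in dorsal skinfold chambers of female nude mice, recovered, expanded in culture and lysed for RNA. Nude mice lack T cells but keep other immune cells. P4 cells descend from the P3 cells of the same tissue, and the late cells of a tissue were 1 adapted line, so that effects of the tissue and of the line cannot be told apart. A second adaptation on brain, labelled a biological replicate, was measured at P1 and P2 only and is on neither side of any comparison below. Its arrays were part of the fit over all arrays and of the filter. They were also part of the gene means from which list levels and chromosome medians were taken. The second brain array of a passage is labelled a technical replicate and came from its own culture. The spread in the tests is therefore between cultures of 1 line, and the single marrow and lung arrays were assumed to vary like the pairs.

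As background, cells that leave a primary tumour meet tissues that differ in matrix, nutrients and neighbouring cells, and lines selected on one organ often carry expression patterns that go with growth there. In HER2-driven mammary tumours, the receptor signals through ERK and PI3K to growth, survival and metabolism. Brain is a frequent site of relapse of HER2-positive breast cancer in patients.

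Values are RMA levels, log2 values for each probe set after background correction, quantile normalization and a summary over probes. A gene is represented by 1 probe set and differences are log2 differences, late brain minus late marrow and lung. The adjusted p is that of limma with Benjamini-Hochberg adjustment over all kept probe sets, and genes with an adjusted p under 0.05 are called. The cells had the markers of mammary tumour epithelium, with Krt8 between 12.57 and 13.02 on the late brain arrays and between 12.35 and 13.08 on the late marrow and lung arrays. Of 10 genes in that list, 9 passed the filter on low values. Of 78 measured genes that mark neurons, astrocytes, oligodendrocytes, microglia, marrow cells, lung epithelium, fibroblasts or endothelium, 7 passed it. The median level of these 8 lists lay between 4.12 and 5.49 on the late brain arrays and between 3.77 and 5.17 on the other late arrays, against 7.33 for the lowest group mean that passed. The second brain arrays of P3 and P4 had a higher floor, with a 5th percentile of 3.04 and 2.80 against 2.01 to 2.26 on the other late arrays. The median difference over all 7301 genes was -0.13, and -0.015 after the arrays were given equal medians. Differences below are as fitted, and list medians are relative to that of all genes.

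Few genes separated late brain cells from late marrow and lung cells. Of 7301 genes, 2 were called higher and 1 lower in late brain cells, which is 0.0411% of the genes tested. At an unadjusted p under 0.05 there were 96 higher and 725 lower genes, and 255 and 334 with equal array medians. A difference over 2-fold was measured for 15 genes higher and 23 genes lower. The median standard error was 0.16, so the 95% interval of a typical difference reached 0.36 to either side. For 6858 genes, 93.9% of the total, the whole interval lay within 2-fold in either direction. This interval takes its error from the paired cultures. With the 8 arrays compared as 4 against 4, which takes in the spread between passages and between marrow and lung, limma called 0 genes, 500 had an unadjusted p under 0.05, and the intervals of 6643 genes, 91.0%, lay within 2-fold.

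**Figure D1:**
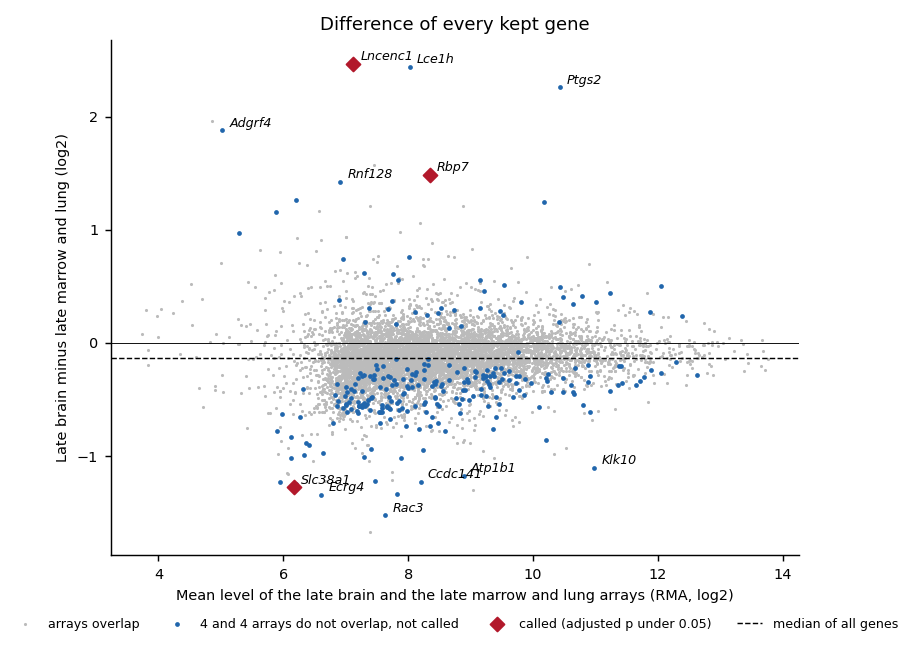
Each point is 1 of 7301 genes, with its mean level over the late arrays (RMA, log2) on the horizontal axis and the difference of late brain minus late marrow and lung (log2) on the vertical axis. Red diamonds are the 3 called genes, blue points are genes whose 4 brain arrays do not overlap the other 4, and the dashed line is the median of all genes at -0.13.

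The called genes were Lncenc1, a long noncoding RNA known from mouse embryonic stem cells, Rbp7, a cytosolic retinoid-binding protein, and Slc38a1, a sodium-coupled carrier of glutamine and other neutral amino acids. They are named because they are so few, after their values were seen. Lncenc1 (probe set 10406823, chromosome 13) measured 6.19 and 6.75 at brain P3 and 10.52 and 9.97 at brain P4, against 4.05 and 4.48 in marrow P3 and P4 and 6.77 and 8.25 in lung P3 and P4. Its P4 brain arrays were the highest of the late arrays, and its P3 brain arrays lay between marrow and lung. The marrow values lay below the median of all probe sets on the marrow arrays, 5.08 and 4.98. The difference was 2.47 (standard error 0.19, adjusted p = 0.0040).

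Rbp7 (probe set 10518674, chromosome 4) measured 8.46 and 8.49 at brain P3 and 9.37 and 10.04 at brain P4, against 7.04 and 7.48 in marrow and 7.15 and 8.74 in lung P3 and P4. Lung P4 alone reached into the brain range. The difference was 1.49 (standard error 0.17, adjusted p = 0.043), with P0 at 5.02 and 4.73, below all late arrays.

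Slc38a1 (probe set 10431874, chromosome 15) measured 7.28 and 6.90 at brain P3 and 3.98 and 3.97 at brain P4, against 7.06 and 6.76 in marrow and 7.51 and 5.91 in lung P3 and P4. The P4 brain arrays were lowest, and those of P3 lay within the range of the other tissues. On the P4 brain arrays the median of all probe sets was 5.14 and 5.15, so that Slc38a1 was low there. The difference was -1.28 (standard error 0.13, adjusted p = 0.030). With 4 arrays against 4, the adjusted p was 0.704 for Lncenc1, 0.704 for Rbp7 and 0.715 for Slc38a1. Without the second brain arrays of both passages only Lncenc1 was called, and Rbp7 and Slc38a1 had an adjusted p of 0.228 each. The number of called genes was 1 without the second brain P3 array, without the second brain P4 array or without lung P3, and 6 without the first brain P4 array.

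**Figure D2:**
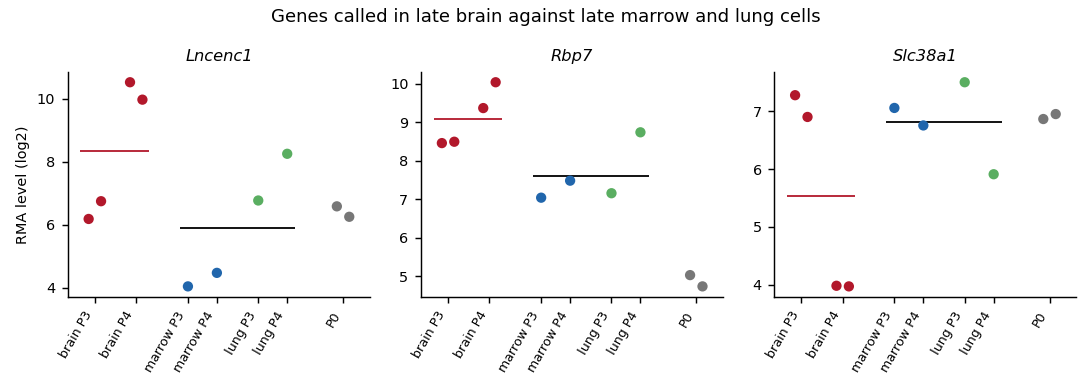
Level of the 3 called genes (RMA, log2) on each late brain (red), late marrow (blue), late lung (green) and parental P0 (grey) array, with a line at the mean of the 4 brain and of the 4 marrow and lung arrays. Lncenc1 rises to 10.52 and Slc38a1 drops to 3.97 on P4 brain arrays, while the P3 brain arrays lie within the range of the other tissues.

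None of the 3 called genes had brain arrays apart from all other late arrays. Over all genes, the 4 brain arrays lay above the other 4 for 43 genes (0.589%) and below them for 214 (2.93%), and with equal array medians for 147 (2.01%) and 115 (1.58%). The genes with the largest differences among these were not called and were picked after their values were seen. Among the higher ones were Ptgs2, which encodes the inducible cyclooxygenase of prostaglandin synthesis, Lce1h, a late cornified envelope gene, Rnf128, a ubiquitin ligase, Npr3, the clearance receptor of natriuretic peptides, and Adgrf4, an adhesion G protein-coupled receptor.

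Ptgs2 (probe set 10350516, chromosome 1) measured 11.9995 and 11.27 at brain P3 and 12.07 and 10.89 at brain P4, against 10.22 and 8.79 in marrow and 8.29 and 9.89 in lung P3 and P4. All 4 brain arrays were higher, but the parental arrays alone spanned 10.47 to 8.16. The difference was 2.26 with a 95% interval of 1.18 to 3.34 (adjusted p = 0.25). Lce1h measured 9.88, 9.82, 8.73 and 8.55 on the brain arrays, P3 before P4, against 8.23, 6.69, 6.04 and 6.25 on the marrow and lung arrays. Its difference was 2.44 (interval 1.59 to 3.30, adjusted p = 0.091), and as a member of a cluster of near-identical genes it may share probes with its neighbours.

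Rnf128, on the X chromosome, measured 7.50, 7.36, 7.53 and 8.08 on the brain arrays, against 6.03, 6.04, 7.14 and 5.59 on the marrow and lung arrays. Lung P3 came closest to the brain range. The difference was 1.42 (interval 0.98 to 1.87, adjusted p = 0.072). Npr3 measured 6.70, 7.06, 6.83 and 6.78 on the brain arrays, against 5.06, 5.52, 6.15 and 5.57 on the marrow and lung arrays, with a difference of 1.27 (adjusted p = 0.069). P0 stood at 6.99 and 6.32 and thus overlapped the late brain arrays. Adgrf4 measured 4.44 and 5.35 at brain P3 and 6.91 and 7.14 at brain P4, against 3.88 to 4.40 on the marrow and lung arrays (difference 1.88, adjusted p = 0.091). Its brain P3 value of 4.44 lay just above the 4.40 of lung P4.

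Others of this kind were Kctd12b at 1.16, Prkaa2, a catalytic subunit of AMP-activated kinase, at 0.97, Rhob, a small GTPase of endosomes and actin, at 0.76, Acap1 at 0.74, the fatty acid elongation enzyme Hacd1 at 0.62 and the adenylate kinase Ak1 at 0.61, with adjusted p between 0.091 and 0.31. Snord49b, a small nucleolar RNA, stood at 1.24, but its first brain arrays, 10.03 and 10.11, lay close to 9.96 of marrow P3, and it overlapped once the arrays had equal medians. The late arrays of Npr3, Adgrf4, Kctd12b and Prkaa2 all lay below 7.33, the lowest group mean that passed, and these genes passed the filter through other groups.

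Among the lower genes were Atp1b1, the beta subunit of the sodium pump, Ccdc141, a coiled-coil protein, Rac3, a small GTPase, Hunk, a kinase known from mammary tumours of mice, and Ecrg4, a secreted precursor protein. Atp1b1 (probe set 10359689, chromosome 1) measured 8.49, 8.33, 8.28 and 8.11 on the brain arrays, against 8.93, 9.32, 10.03 and 9.62 on the marrow and lung arrays. The brain arrays also lay below P0, at 9.24 and 9.91. The difference was -1.17 (interval -1.54 to -0.80, adjusted p = 0.072).

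Ccdc141 measured 7.67, 7.50, 7.35 and 7.81 on the brain arrays, against 8.26, 9.01, 8.93 and 9.05 on the marrow and lung arrays. The difference was -1.23 (adjusted p = 0.065), the lowest adjusted p among the genes that did not overlap. Rac3 measured 7.81, 6.50, 6.81 and 6.38, against 8.26, 8.38, 8.29 and 8.65, a difference of -1.52 (adjusted p = 0.28). The marrow and lung arrays were tight and the brain P3 pair was not.

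Ecrg4 measured 5.91, 6.63, 5.98 and 5.20, against 6.65, 7.57, 7.88 and 7.0, with P0 at 8.95 and 9.45, above all 8 late arrays (difference -1.34, adjusted p = 0.16). The second brain P3 array, at 6.63, lay just below marrow P3, and with equal array medians the arrays of Ecrg4 overlapped. Hunk measured 6.24, 5.10, 5.52 and 5.44, against 6.61, 6.69, 7.64 and 6.34 (difference -1.24, adjusted p = 0.25). Cpm, a membrane carboxypeptidase, at -1.34, Etv1, an ETS transcription factor, at -1.23, Prkch, a protein kinase C, at -1.22, Klk10, a secreted serine protease, at -1.10, Pilrb2 at -1.02, Lpcat2, an enzyme of phospholipid remodelling, at -1.01 and Rarb, a retinoic acid receptor, at -1.01 completed the lowest 12, with adjusted p between 0.11 and 0.46. With equal array medians Cpm, Prkch and Rarb also overlapped.

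**Figure D3:**
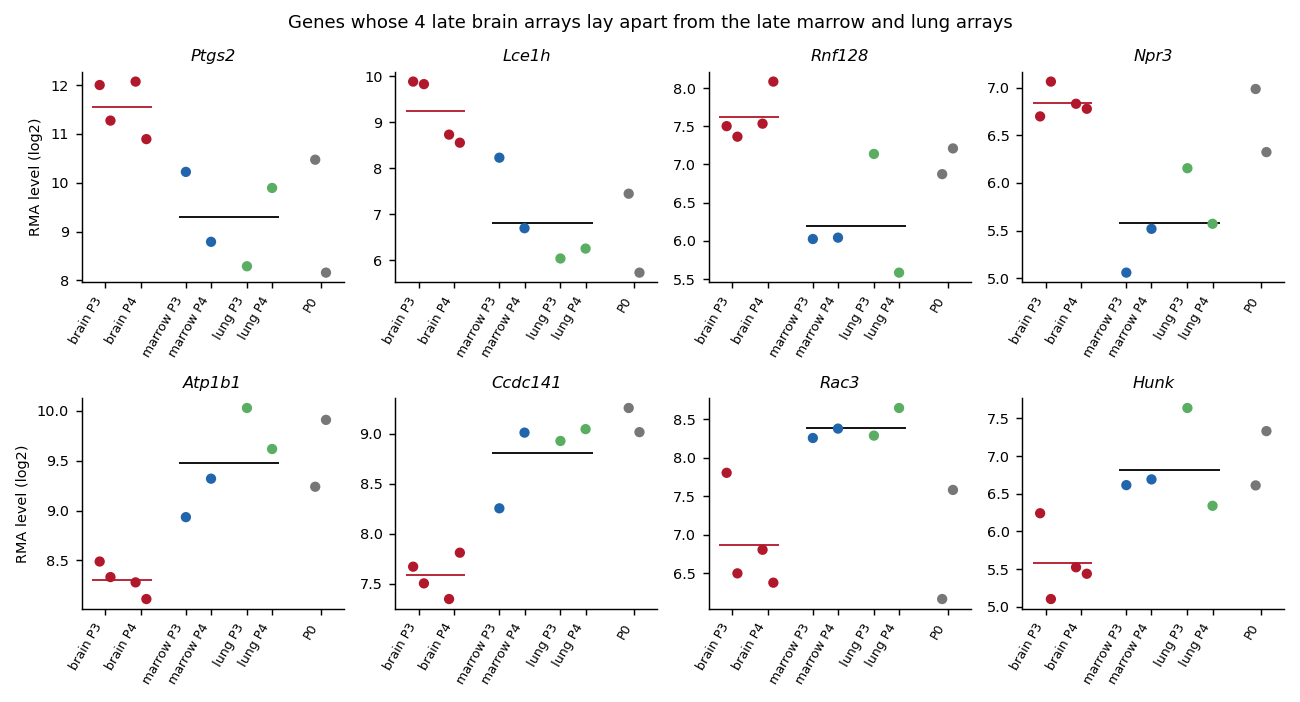
Level (RMA, log2) of 4 genes that were higher and 4 that were lower on all late brain arrays (red) than on the late marrow (blue) and lung (green) arrays, with P0 in grey and lines at the means of the 4 brain and of the 4 marrow and lung arrays. The brain arrays of Atp1b1 lie within 8.11 to 8.49, below the lowest other late array at 8.93.

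Sequence at the start sites is shown for the called genes Lncenc1 and Rbp7 and for Ptgs2, the brightest of the higher genes (RefSeq, GRCm38.p6, 250 bases before to 50 after the annotated start, on the gene's strand). Capitals mark the E-box CACGTG and CGTCA, the core of the cyclic AMP response element, searched on both strands.
Lncenc1, chr13:97434720-97435019, plus strand: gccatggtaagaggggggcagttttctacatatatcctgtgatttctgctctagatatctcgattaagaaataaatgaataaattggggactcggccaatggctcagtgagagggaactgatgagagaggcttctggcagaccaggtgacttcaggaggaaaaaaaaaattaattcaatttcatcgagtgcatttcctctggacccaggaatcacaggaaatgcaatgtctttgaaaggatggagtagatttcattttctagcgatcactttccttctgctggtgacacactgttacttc
Rbp7, chr4:149454919-149455218, minus strand: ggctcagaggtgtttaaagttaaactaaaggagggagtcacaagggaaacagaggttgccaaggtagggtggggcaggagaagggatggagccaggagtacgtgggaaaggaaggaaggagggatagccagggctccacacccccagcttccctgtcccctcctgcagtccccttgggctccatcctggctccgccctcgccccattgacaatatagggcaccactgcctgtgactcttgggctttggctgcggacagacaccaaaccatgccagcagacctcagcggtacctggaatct
Ptgs2, chr1:150099781-150100080, plus strand: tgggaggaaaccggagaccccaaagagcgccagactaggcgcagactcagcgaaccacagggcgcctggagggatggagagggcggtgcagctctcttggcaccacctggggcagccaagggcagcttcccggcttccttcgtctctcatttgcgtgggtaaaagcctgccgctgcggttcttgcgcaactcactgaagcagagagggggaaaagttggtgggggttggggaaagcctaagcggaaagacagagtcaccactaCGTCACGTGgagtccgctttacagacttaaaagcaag
The Ptgs2 sequence held both motifs, which overlap there after the annotated start, and the Lncenc1 and Rbp7 sequences held neither. Of 32851 promoters of this length, 7.15% held the E-box and 20.8% the core.

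Taken tissue by tissue, late brain against late marrow called 1 gene (0.0137%), Lncenc1, higher by 4.09 (adjusted p = 0.00030). Its marrow values lay below the array medians of all probe sets, as given above, which limits what the size of this difference shows. Late brain against late lung called 0 genes (0%), with the lowest adjusted p, 0.0504, shared by U90926, a mouse transcript of unsettled function, and Cited4, a transcriptional co-activator, and 973 genes at an unadjusted p under 0.05. The difference between both comparisons is that of late marrow against late lung. There limma called 4 genes (0.0548%), Lncenc1 and Atp6v0a4 lower and Emb and U90926 higher in marrow.

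Atp6v0a4, a subunit of the vacuolar proton pump, measured 5.26 and 5.27 at brain P3 and 7.10 and 6.90 at brain P4, against 5.13 and 5.42 in marrow and 7.27 and 7.40 in lung. Brain P3 thus resembled marrow and brain P4 lay nearer to lung, and marrow minus lung was -2.06 (adjusted p = 0.029). U90926 measured 10.43, 9.68, 9.07 and 8.78 on the brain arrays, against 10.20 and 9.0 in marrow and 5.98 and 7.94 in lung (marrow minus lung 2.64, adjusted p = 0.047). Emb, the partner protein of monocarboxylate carriers, measured 7.34, 7.11, 6.55 and 6.48 on the brain arrays, against 7.83 and 8.06 in marrow and 5.17 and 7.49 in lung (marrow minus lung 1.61, adjusted p = 0.029). Lung P3 alone was low. Between 0 and 3 genes were called when 1 late array was left out, 0 of them without marrow P3 (limma, 378 at an unadjusted p under 0.05), 3 without lung P4 and 1 without any other late array, and with equal array medians 2 genes were called higher and 4 lower in marrow.

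The comparison was also made within each passage. At P3 limma called 0 genes (0%) between brain and the other tissues, with 436 at an unadjusted p under 0.05, and at P4 it called 5 (0.0685%). Those at P4 were Lncenc1 at 3.88 (adjusted p = 0.0016) and Slc38a1 at -2.36 (adjusted p = 0.0031), Gli3, a transcription factor of the Hedgehog pathway, at -1.94 (adjusted p = 0.042), Cadm1, a cell adhesion molecule, at 1.86 (adjusted p = 0.044) and Adamts9, a secreted metalloprotease, at 1.43 (adjusted p = 0.0499). The change of the difference from P3 to P4 called 0 genes (0%), with 713 at an unadjusted p under 0.05 and a lowest adjusted p of 0.13, and its median interval of 0.71 to either side was the widest of these comparisons. The change was 2.82 for Lncenc1 and -2.17 for Slc38a1 (adjusted p = 0.13 each). Without the marrow P3 array 5 genes were called for it, and 1 without lung P4.

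Gli3 measured 6.54 and 6.22 at brain P3 and 4.88 and 4.28 at brain P4, against 6.43 and 6.76 in marrow and 7.03 and 6.28 in lung. All its late arrays lay below 7.33, so that it passed the filter through other groups. Its brain P4 values, like those of Slc38a1, lay below the median of all probe sets on these arrays, 5.14 and 5.15. Cadm1 measured 6.58 and 6.01 at brain P3 and 8.25 and 7.80 at brain P4, against 5.70 and 5.64 in marrow and 5.94 and 6.69 in lung. Its P4 brain arrays came nearest to P0, at 8.55 and 8.48. Adamts9 measured 6.35 and 6.49 at brain P3 and 7.46 and 7.70 at brain P4, against 6.33 and 5.88 in marrow and 7.37 and 6.42 in lung.

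Set beside the parental cells, late brain cells had 12 genes called higher and 47 lower (0.808%), and late marrow and lung cells 9 higher and 13 lower (0.301%). Both comparisons use the same P0 arrays. The first total was 18 without the second P0 array, 30 and 37 without the second brain array of P3 and of P4, and 17 without both. The second total was 28 without the second P0 array and 19 without both second brain arrays, so that in these cases it was the larger one. With equal array medians the first total split into 17 higher and 36 lower. Rbp7 rose by 4.21 in late brain cells and by 2.72 in late marrow and lung cells (adjusted p = 5.3e-05 and 0.0013). Ecrg4 stood at -3.27 and -1.92 (adjusted p = 0.0019 and 0.045), and U90926 rose by 4.11 and by 2.90 (adjusted p = 0.00046 and 0.0027). For Cadm1, at -1.36 in late brain cells and -2.53 in late marrow and lung cells, and Adamts9, at -1.43 and -1.94, the late marrow and lung cells lay farther from P0. Ccdc141 stood at -1.56 in late brain cells (adjusted p = 0.010) and at -0.33 in late marrow and lung cells (adjusted p = 1), and Atp1b1 at -1.27 (adjusted p = 0.026) and -0.099 (adjusted p = 1).

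Erbb2, the mouse counterpart of the transgene, measured 9.50, 9.42, 10.15 and 9.60 on the brain arrays, against 9.21 and 9.99 in marrow and 10.99 and 10.24 in lung, with P0 at 10.69 and 10.70. Late brain cells overlapped marrow and, at 10.15, stayed below both lung arrays (difference -0.44, interval -0.77 to -0.11, adjusted p = 0.41). Against P0, limma called Erbb2 lower in late brain cells (adjusted p = 0.0405) and did not call it in late marrow and lung cells (adjusted p = 0.56). Whether the probe set also takes up the rat transcript is not known from the files. Erbb3 stood at -0.40 and Egfr at 0.48 (adjusted p = 0.49 and 0.44). Of 14 measured genes of ErbB receptors and ligands, 9 passed the filter. In late brain against late marrow and lung 0 of them were called, and their median was -0.016 relative to all genes.

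The same comparison at P1 and P2 gave another picture, and was added after results were seen. Early brain against early marrow and lung called 1722 genes (23.6%), with 4 early brain and 4 other arrays, and the late minus the early difference called 694 (9.51%), of which 292 were positive and 402 negative. Without the second late brain arrays 383 were called, and with equal array medians 450 were positive and 390 negative. Whole chromosomes were shifted in the early comparison, from -0.64 for chromosome 4 and -0.55 for chromosome 14 to 0.14 for chromosome 7. Late minus early, these 3 stood at 0.66, 0.45 and -0.11. With chromosome medians subtracted 525 genes were called for the late minus the early difference. Rbp7, below, lies on chromosome 4. Atp1b1 had a late difference of -1.17 and an early one of 2.05 (late minus early -3.23, adjusted p = 0.00016). Klk10 had -1.10 late and 1.29 early (-2.40, adjusted p = 0.0031), Slc38a1 -1.28 late and 0.90 early (-2.18, adjusted p = 0.00040). In the other direction, Lncenc1 had 2.47 late and -1.59 early (4.05, adjusted p = 9.2e-05), Rbp7 1.49 late and -1.47 early (2.96, adjusted p = 0.00030) and Npr3 1.27 late and -1.04 early (2.31, adjusted p = 0.0011). Cadm1 was higher on brain in both, at 1.17 late and 2.58 early (-1.42, adjusted p = 0.0095). For Ecrg4, at -1.34 late and -1.58 early, the difference of 0.23 did not pass the test (adjusted p = 0.73).

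In 38 gene lists, 1 kept member was called, Slc38a1 among 18 amino acid carriers. The median of a list relative to all genes lay between -0.20 and 0.47, and for 35 lists the 4 brain arrays overlapped the others. Relative to the median of all genes, 100 genes (1.37%) were over 1.5-fold higher and 82 (1.12%) over 1.5-fold lower, against which the counts below are given.

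The list of vessel growth had the highest median, 0.47 above all genes. It was drawn up for secreted factors but also holds an enzyme, Ptgs2, and a co-receptor, Nrp1. Of 22 measured members 12 were kept, 10 of them above the median of all genes and 2 over 1.5-fold higher. The list's level on the brain arrays lay between 0.053 and 0.36 and on the other late arrays between -0.23 and -0.028. Besides Ptgs2, its members with the lowest p were Pdgfa, a platelet-derived growth factor, at -0.45 (adjusted p = 0.38) and Nrp1, a co-receptor of semaphorins and VEGF, at 0.34 (adjusted p = 0.45). Pdgfa went against the list. The median of the list was 0.27 without lung P3 and 0.31 without the second brain P3 array.

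Genes of mitosis and the spindle, of which 41 of 42 measured were kept, had a median of 0.16 above all genes, with 36 members above the median of all genes and 0 beyond 1.5-fold in either direction. The list's level was 0.18 to 0.23 on the brain arrays and -0.13 to 0.15 on the others, and its median was 0.10 without lung P3. Kif20a, a mitotic kinesin, stood at 0.32 and Spc25, a kinetochore protein, at -0.62 (adjusted p = 0.51 and 0.46). Of 41 genes of DNA replication 39 were kept, with a median of -0.077 relative to all genes, which was 0.011 without the second brain P4 array.

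Matrix proteases and their inhibitors (18 of 30 measured kept) had a median of 0.30 above all genes and levels of 0.19 to 0.48 on the brain arrays, against 0.016 to 0.18 on the others. The nearest values were 0.19 on the first brain P4 array and 0.18 on lung P4, and the median was 0.14 without lung P3. Slpi, a secreted inhibitor of serine proteases, measured 10.50, 10.61, 10.97 and 10.61, against 10.04, 10.10, 10.23 and 10.36, so that its arrays did not overlap (difference 0.50, adjusted p = 0.41). Mesenchymal genes (10 of 21 kept) stood 0.30 above all genes, with Snai1, a repressor of epithelial genes, at 0.74 (adjusted p = 0.46), but the arrays of the list overlapped. Basal and myoepithelial genes (5 of 20 kept) stood at 0.39, with a spread between paired arrays of 0.32. Targets of p53 (16 of 24 kept) stood at 0.23. The arrays of both lists overlapped as well.

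Glycolysis and hypoxia response genes (20 of 27 kept) had a median of 0.29 above all genes, with 17 members above the median of all genes and 2 over 1.5-fold higher. The median was 0.050 within P3 and 0.49 within P4. At P3 the list's level was 0.24 and 0.25 on the brain arrays, against 0.32 in marrow and 0.016 in lung, and at P4 it was 0.49 and 0.35 on the brain arrays, against -0.11 in marrow and -0.18 in lung. Bnip3, a mitochondrial protein induced by low oxygen, measured 8.91, 8.50, 8.69 and 8.80 on the brain arrays, against 8.56, 6.91, 8.06 and 7.14 on the marrow and lung arrays (difference 1.06, adjusted p = 0.38). Pgk1, an enzyme of glycolysis, measured 12.13, 11.84, 12.27 and 11.95, against 12.08, 11.59, 11.61 and 11.14 (difference 0.44, adjusted p = 0.38). In both genes marrow P3 was the array that reached the brain range.

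Tight junction genes stood at -0.20, cholesterol synthesis at -0.19 and chemokines and cytokines at -0.18 relative to all genes, each with arrays that overlapped, and their order did not hold. For tight junction genes the median was -0.0051 within P3 and 0.20 within P4, and between -0.14 and -0.061 with any 1 late array left out. Without the first brain P4 array that of cholesterol synthesis was -0.069 and that of chemokines -0.37. Of 20 measured cholesterol genes 19 were kept, 4 of them above the median of all genes. Idi1 stood at -0.75 and Hmgcs1, the synthase that opens the pathway, at -0.50 (adjusted p = 0.36 and 0.41). Among chemokines, 16 of 31 kept, Cx3cl1 stood at -0.68 and Ccl5 at -0.78 (adjusted p = 0.36 and 0.37), and Ccl5 did not overlap, with 5.91, 5.34, 5.63 and 5.16 on the brain arrays against 7.01, 5.95, 6.04 and 6.14 on the others. Chaperones of the endoplasmic reticulum (23 of 24 kept) had a median of -0.12, or -0.048 without the second brain P4 array, and Creld2 among them stood at -0.47 (adjusted p = 0.36). Of amino acid carriers, Slc7a7 stood at -0.76 and Slc7a11, which exports glutamate for cystine, at -0.78 (adjusted p = 0.33 and 0.34), and 4 of the 18 were over 1.5-fold lower and 0 over 1.5-fold higher.

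In other lists the difference from marrow and that from lung had opposite signs. Type I interferon-induced genes (9 of 31 kept) had a median relative to all genes of 0.44 for late brain against marrow and of -0.58 for late brain against lung. For antigen presentation genes (11 of 16 kept) these values were 0.36 and -0.29. The brain arrays spread widely in both lists, and by passage. The interferon level was -0.22 and -0.13 at brain P3 and 0.17 and 0.35 at brain P4. That of antigen presentation was -0.16 and 0.12 at brain P3 and 0.51 and 0.33 at brain P4. Against marrow and lung together, the interferon median relative to all genes was -0.42 within P3 and 0.24 within P4. For antigen presentation it was -0.11 and 0.34. Among the interferon genes, Dtx3l stood at -0.59, Parp9 at -0.43 and Usp18, a protease that removes ISG15, at 0.30 (adjusted p between 0.41 and 0.61). Some genes of other lists lay farther from lung than from marrow, a contrast that was not called for them. Itgb8, an integrin subunit, stood at -0.42 against marrow and -1.51 against lung, the chloride channel regulator Clca2 at -0.45 and -1.97, and Elf5, a transcription factor of alveolar mammary cells, at -0.13 and -1.32, and 0 of these 3 were called in either comparison. Itgb6, another integrin subunit, stood at 0.40 and 0.55.

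Neural gene lists, which the study drew from P1 cells on brain and which are not independent of these arrays, had 0 called members. Those raised at P1 (27 of 33 kept) had a median of 0.19 and those lowered at P1 (19 of 23 kept) of 0.0925 relative to all genes. The level of the raised list was -0.32 to -0.10 on the brain arrays and -0.41 to -0.29 on the others, which overlapped, and its median was 0.067 without the second brain P3 array and 0.078 without marrow P4. That of the lowered list was 0.0022 without lung P3. Ptgs2 and Etv1, described above, belong to these lists.

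**Figure D4:**
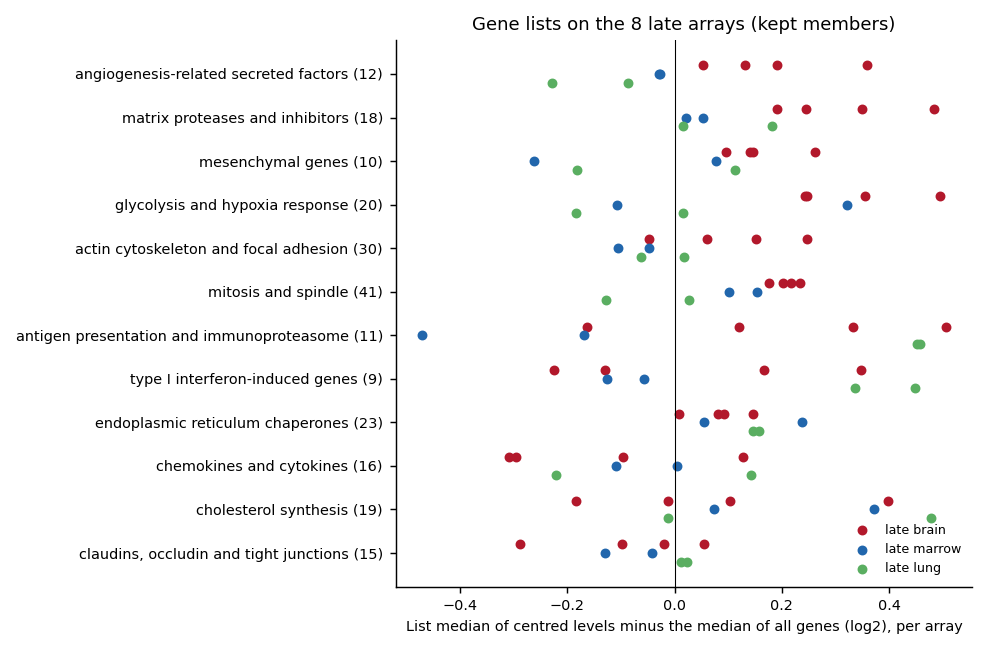
For 12 gene lists, the median of the members' levels, each centred on its mean over all 21 arrays, minus the same over all genes (log2) on each late brain (red), late marrow (blue) and late lung (green) array, with the number of kept members in brackets. The brain arrays lie to the right of the others for the lists of vessel growth, matrix proteases and mitosis. For interferon-induced and antigen presentation genes both marrow arrays lie to the left of both lung arrays while the brain arrays overlap them.

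Of the markers of other cells that passed the filter, Ltf, a milk and granulocyte protein, measured 11.34, 10.37, 7.95 and 10.58 on the brain arrays, against 11.48, 11.14, 10.92 and 10.40 on the marrow and lung arrays. The 2 cultures of brain P4 differed most. Cd68, a lysosomal protein abundant in macrophages, measured 6.60, 6.87, 7.22 and 8.22, against 6.78, 5.90, 6.16 and 7.49. Sox10, a transcription factor that mammary cells share with oligodendrocytes, measured 9.07, 9.09, 9.83 and 9.76, against 9.15, 9.49, 10.11 and 9.97. Sftpd, the only lung epithelium marker that passed, measured 5.86, 6.04, 5.64 and 6.56 on the brain arrays. It measured 6.22 and 5.99 in marrow and 7.73 and 6.72 in lung, with P0 at 6.02 and 7.98. The lung arrays were thus the highest late ones, but the second P0 array was higher. Aldoc, Cnp and Mbp also passed, with arrays that overlapped. None of the 7 was called in late brain against late marrow and lung. The neuronal markers Snap25 and Syp reached 5.31 and 5.65 on the late brain arrays and 5.09 and 5.05 on the other late arrays, below the filter limit. Both brain maxima were on the second brain P3 array, which had the highest floor of the late arrays. The remaining brain arrays lay between 4.96 and 5.24 for Snap25 and between 4.86 and 5.10 for Syp. P0 stood at 4.93 and 4.82 for Snap25 and at 5.16 and 5.05 for Syp.

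Chromosome medians differed slightly between late brain cells and the others. For each array the median of a chromosome's genes was set against that of the genes of all other chromosomes, and 4 of 20 chromosomes (20%) were called lower in late brain cells and 0 higher. Chromosome 1 stood at -0.053, chromosome 3 at -0.097 and chromosome 14 at -0.10 (adjusted p = 0.0072 each), and chromosome 13 at -0.0685 (adjusted p = 0.023). With 4 arrays against 4, and also without the first brain P3 array, limma called 0 chromosomes.

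Chromosome 1 was at -0.065, -0.063, -0.11 and -0.085 on the brain arrays, against -0.0065, -0.024, -0.042 and -0.038 on the marrow and lung arrays, and these did not overlap. Chromosome 13, which carries Lncenc1, Gli3 and Emb, was at 0.020 and 0.046 at brain P3 and -0.24 and -0.18 at brain P4, against 0.028 and 0.044 in marrow and -0.033 and -0.12 in lung P3 and P4. Its low values were on P4 arrays of brain and lung. Chromosome 3 was at 0.019, 0.057, -0.084 and -0.014 on the brain arrays, against 0.0425 and 0.0424 in marrow and 0.24 and 0.045 in lung, so that lung P3 stood apart. The change from P3 to P4 was called for 4 of 20 chromosomes (20%), namely 13, 14, 15 and 19, at -0.21, -0.16, -0.19 and -0.16 (adjusted p = 0.0031, 0.012, 0.0035 and 0.0031). After the chromosome medians were subtracted, the 3 genes called in late brain against late marrow and lung were called again, Lncenc1 at 2.65, Rbp7 at 1.59 and Slc38a1 at -1.15, and Cadm1 at 1.27 was called besides.

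**Figure D5:**
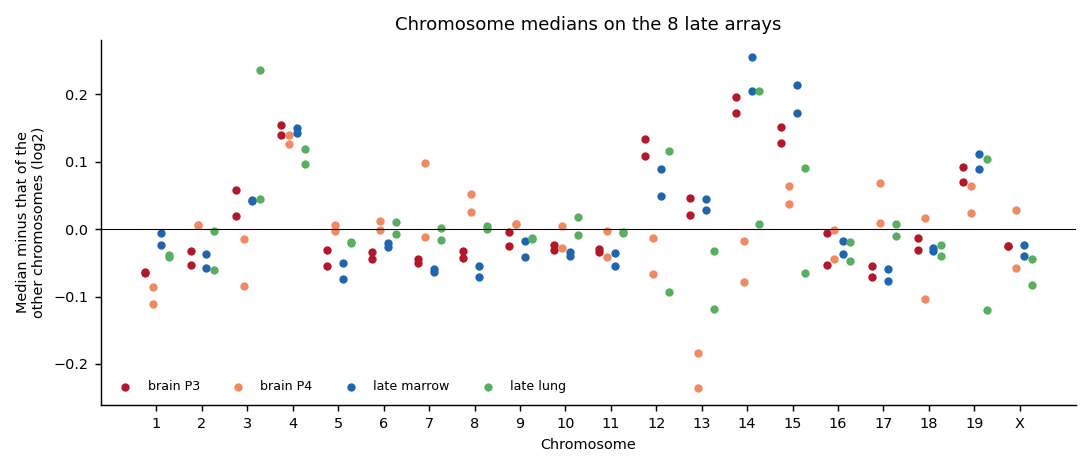
Median of the genes of each chromosome minus that of the other chromosomes (log2, vertical axis) on the late arrays, for brain P3 (red), brain P4 (orange), marrow (blue) and lung (green). Chromosome 13 lies at -0.24 and -0.18 on the brain P4 arrays and at 0.020 and 0.046 on those of P3.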

How the data were processed

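RNA of cultured N202 cells had been measured on 21 Affymetrix Mouse Gene 1.0 ST arrays in 16 groups, taken from the labels. The authors deposited log2 values for 34760 probe sets, made by RMA in the Expression Console, and these were used unchanged. The precision is limited by the number of arrays. Of the probe sets, 21640 carried 1 gene symbol, 1321 several and 11799 none in the platform annotation, and 21553 were found in RefSeq on GRCm38.p6, the source of chromosomes and start-site sequence. The study retained 10522 probe sets above its negative control probes, and as many were retained here, those brightest in any group. A gene took its brightest probe set, which gave 7301 genes.

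A model with 1 mean a group over all arrays was fitted with limma 3.58.1 in R 4.3.3 (empirical Bayes, 5 residual and 3.9 prior degrees of freedom). It was first run on simulated data with equal, independent noise in all groups. That run cannot check whether the single marrow and lung arrays vary like the pairs. Chromosomes were fitted alike, on the median of each array. Gene lists were counted and not tested. Figures were drawn with Python 3.11.15 and matplotlib 3.10.9.

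The rule for names was the 12 highest and 12 lowest called genes whose arrays did not overlap, which 0 genes met, then genes called between late marrow and late lung or for the change with passage, 4 members a list by lowest p, Erbb2, and 2 members a marker list by level. Genes that did not overlap, genes called in the main comparison and genes called at P4 were added after their values were seen. The members, lists and tests were chosen with earlier results of these data known.

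As alternatives, probe sets were left unfiltered or cut to the brightest 7000, arrays were set to equal medians or scaled by cyclic loess, variances followed a trend with robust limits, a 2-fold change was required, probe sets of a gene were averaged, chromosome medians were subtracted, single arrays were left out, and the 8 late arrays were fitted alone (4 against 4, with passage as a block, or with brain pairs averaged). Leaving out both second late brain arrays and the comparison at P1 and P2 were added after the data were seen.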

Additional observations from a re-analysis of the deposited data

Results flagged for a closer look

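In 4 genes the difference of late brain from marrow and that from lung were themselves different by the limma test of late marrow against late lung. Lncenc1 stood at 4.09 above marrow and 0.84 above lung (marrow minus lung -3.25), U90926 at -0.11 and 2.53 (2.64), Emb at -1.08 and 0.54 (1.61) and Atp6v0a4 at 0.86 and -1.21 (-2.06). For 694 genes the late comparison differed from the same comparison at P1 and P2. The change from P3 to P4 passed the test for chromosomes 13 (-0.208), 14 (-0.159), 15 (-0.188) and 19 (-0.160).

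Among the 4 arrays of a side, 1 array lay far from the other 3 in 5 of 122 sets of 4 values. The sets mix passages and many of the genes were picked by their values, so how many chance would give cannot be said. Lung P4 was at 6.47 for Hacd1, the other marrow and lung arrays at 7.10 to 7.21. Lung P3 was at 7.51 for Etv1 (others 6.20 to 6.32) and at 8.74 for Kif20a (others 9.18 to 9.26). Marrow P3 was at 8.26 for Ccdc141 (others 8.93 to 9.05), and brain P3, first array, at 9.0 for Egfr (others 9.39 to 9.42).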

How the results depend on the processing

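Calls rested on few arrays and on an error taken from paired cultures, and levels near background limit the size of differences in dim genes. Late brain against late marrow and lung, with 3 calls, gave 0 with no filter, 6 with the stricter filter, 5 with cyclic loess, 0 as 4 arrays against 4, 0 with passage as a block, 0 with the brain pairs averaged, 1 without both second late brain arrays, and 1 to 6 with an array left out. Against marrow the count of 1 became 2 with the stricter filter, 6 with equal array medians, 7 with cyclic loess and 8 with chromosome medians subtracted (1 to 2 with an array left out). Against lung the count of 0 became 7 with the stricter filter, 1 with equal array medians, 1 with cyclic loess, 6 with the variance trend, 3 with the mean of probe sets and 1 with chromosome medians subtracted (0 to 4). Marrow against lung, with 4, gave 0 with no filter, 1 with the stricter filter, 2 with the variance trend and 1 without both second late brain arrays (0 to 3). The change from P3 to P4 gave 0 to 5 with an array left out. Late brain against P0, with 59, gave 10 with no filter and 17 without both second arrays (18 to 59), and late marrow and lung against P0, with 22, gave 7 with no filter and 14 with the variance trend (16 to 28). The late minus early comparison, with 694, gave 120 with no filter, 525 with chromosome medians subtracted and 383 without both second arrays (476 to 715). Of 4 chromosomes called, 0 were called as 4 arrays against 4 (0 to 4). The cause of these changes was not tested. With an array left out, the difference of Emb lay between -0.92 and 0.038, above 0 without marrow P4, and that of Atp6v0a4 between -0.57 and 0.19, above 0 without lung P3 (0.15) or lung P4 (0.19). The 3 called genes lost their call in 17 of 42 repeats, Lncenc1 in 2 of 14, Slc38a1 in 6 and Rbp7 in 9. These repeats did not include the fits with passage as a block or with brain pairs averaged, which called 0 genes. The other 58 named genes gained a call in 7 of 812 repeats and changed sign in 3. Of 456 list medians 21 moved by more than the spread between paired arrays, which was 0.046 to 0.32. Leaving out both second late brain arrays, and the late minus early comparison, were chosen after seeing the data. Arrays were not paired by replicate number, which only labels cultures, and the marrow and lung groups have 1 array each. The fit with passage as a block, given above, is the only blocked one.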
